A study of Mus musculus with 12 samples.

Results

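ADAM and ADAMTS proteins form one family of metalloproteases. The genes described here are those whose symbol on the array has the form Adam, Adamts or Adamtsl followed by a number, with a or b allowed after an Adam number. There were 57 such probes for 37 genes, out of 23604 probes with 1 gene symbol for 14277 genes. Adamts5, an aggrecanase of cartilage, and Adamts2, a procollagen processing enzyme, carried no probe under these symbols and were not analysed here.

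Ear tissue of 2 inbred mouse strains was profiled on bead arrays made by Illumina. The strains were LG/J, which closes ear punch holes readily, and SM/J, which closes them poorly. The 4 groups were LG/J tissue from around an ear punch at day 7, uninjured LG/J ear, SM/J tissue from around an ear punch at day 7, and uninjured SM/J ear, with 3 arrays each. No group carried an engineered allele or a drug by the labels, which give no age or sex. The labels do not say whether arrays came from separate animals, so p-values measure only the spread between these samples. The tissue is a mixture of skin, cartilage, vessels, nerve and muscle, and in such samples fewer cells of a type and less RNA per cell cannot be told apart.

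ADAMs are membrane proteins that cut other membrane proteins close to the cell surface, a step called shedding that frees growth factors, cytokines and adhesion molecules. ADAMTS proteins carry thrombospondin repeats, are secreted, and cut matrix components such as the proteoglycans aggrecan and versican, procollagens and cartilage oligomeric matrix protein. ADAMTS-like proteins have the thrombospondin repeats without the protease domain and bind microfibrils, the fibrillin scaffold of elastic tissue. In skin and cartilage the family is known for growth factor release, for turnover of the provisional matrix and for loss of aggrecan.

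By role, the members were 8 ADAM genes with the zinc-binding protease motif (15 probes), 3 ADAM genes that lack protease activity (6 probes), 6 ADAM genes known mainly from testis and the reproductive tract (7 probes), 6 ADAMTS proteoglycanases (9 probes), 10 other ADAMTS genes (15 probes) and 4 ADAMTS-like genes (5 probes). Values are log2 intensities after background correction and quantile normalization. Of the 57 probes, 56 passed the filter that removed the dimmest 25% of probes on the array, and all 37 genes kept at least 1 probe. The probe that did not pass was 1 of 2 for Adamts19. Between 52.4% and 55.0% of all probes lay above a background limit set at 5.75 to 5.83 on this scale, and 22 member probes lay above it on all 12 arrays. A further 18 of the 56 lay above it on 6 arrays or fewer. Levels of different probes are not on a common scale and are not compared.

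Markers of keratinocytes, fibroblasts and chondrocytes were present in all 4 groups, and none of the measured markers of 11 cell types lay below the limit on all arrays. Several of these lists differed between the groups, and their values stand here for use beside the results. The summed normalized intensity of 7 measured neutrophil markers of 10 listed was 16912 to 23461 in LG/J day 7 and 3367 to 5392 in LG/J uninjured ear, and 55821 to 62789 in SM/J day 7 and 4414 to 5680 in SM/J uninjured ear. For 9 of 11 macrophage markers the sums were 21047 to 28746 in LG/J day 7 and 7016 to 15871 in LG/J uninjured ear, and 26292 to 31140 in SM/J day 7 and 13427 to 15959 in SM/J uninjured ear. For 4 of 5 smooth muscle and myofibroblast markers they were 23566 to 25458 in LG/J day 7 and 3811 to 6902 in LG/J uninjured ear, and 10315 to 14606 in SM/J day 7 and 3746 to 4897 in SM/J uninjured ear. For 8 of 9 chondrocyte markers they were 32448 to 43860 in LG/J day 7 and 63800 to 81688 in LG/J uninjured ear, and 35247 to 36063 in SM/J day 7 and 63998 to 72298 in SM/J uninjured ear. For 7 of 7 skeletal muscle markers they were 34026 to 44671 in LG/J day 7 and 61615 to 92086 in LG/J uninjured ear, and 29288 to 30514 in SM/J day 7 and 33603 to 69872 in SM/J uninjured ear. For 3 of 6 Schwann cell markers they were 7114 to 7793 in LG/J day 7 and 14579 to 16925 in LG/J uninjured ear, and 7701 to 8771 in SM/J day 7 and 15863 to 18761 in SM/J uninjured ear. For 5 of 6 adipocyte markers they were 3715 to 4259 in LG/J day 7 and 6635 to 7794 in LG/J uninjured ear, and 1489 to 2142 in SM/J day 7 and 3079 to 6328 in SM/J uninjured ear. For 6 of 7 endothelial markers they were 7096 to 7603 in LG/J day 7 and 3826 to 5119 in LG/J uninjured ear, and 5981 to 7034 in SM/J day 7 and 4186 to 4409 in SM/J uninjured ear. For 4 of 6 T cell markers they were 1241 to 1463 in LG/J day 7 and 277 to 941 in LG/J uninjured ear, and 1550 to 1850 in SM/J day 7 and 1739 to 2008 in SM/J uninjured ear. Neutrophil, macrophage, myofibroblast and endothelial sums were thus higher at day 7 than in uninjured ear in both strains, and chondrocyte, skeletal muscle, Schwann cell and adipocyte sums lower. A sum is carried mostly by its brightest markers. Single markers went the other way, with 1 chondrocyte marker called higher after injury in each strain and 1 neutrophil marker lower in SM/J. The part of these cell types in the family's values was not tested. LG/J uninjured replicate 4 stood apart, with a score of 6.28 on the first principal component (50.7% of the variance), while replicates 1 and 3 of its group scored -66.0 and -61.9 and the SM/J uninjured arrays scored 36.2 to 69.1. Values without this array are given beside several of the results it moves, and not beside all of them.

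The comparison of day 7 with uninjured ear asks which members changed around the wound in each strain. In both strains the aggrecanase gene Adamts4, the sheddase gene Adam12 and Adamts12 rose, and the microfibril-binding Adamtsl4 fell. In LG/J, Adamts16 and Adamts7 also rose and Adamtsl1 and Adamts10 fell. In SM/J, Adam8, Adamts15 and Adamtsl1 rose and Adamtsl3 fell. In LG/J 8 of 56 member probes were called at an adjusted p under 0.05, 5 higher and 3 lower (14.3%, against 9.04% of all 33960 probes tested, 4.81% higher and 4.23% lower). In SM/J 9 probes of 8 genes were called, 7 higher and 2 lower (16.1%, against 9.39% of all probes, 5.17% higher and 4.21% lower). Day 7 and uninjured arrays did not overlap in 29 of the 56 in LG/J, against 28.2% of all probes, and in 22 in SM/J, against 31.6% of all probes. The median change of the member probes was 0.12 on the log2 scale in LG/J and 0.07 in SM/J, where over all probes it was -0.01 (LG/J) and -0.02 (SM/J). Both injury comparisons were made with limma, with 3 arrays a group. The LG/J count was 5 without LG/J day 7 replicate 1 or 3. Without LG/J uninjured replicate 4 the counts were 9 in LG/J and 13 in SM/J. With arrays scaled to a common median instead of quantile normalized, the members split into 4 higher and 5 lower in LG/J and 4 higher and 2 lower in SM/J. Under that scaling the share of higher among all calls was 29.6% in LG/J and 28.2% in SM/J, where it was 53.2% in LG/J and 55.1% in SM/J with quantile normalization.

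Promoter sequences from RefSeq (GRCm38.p6, 250 bases before to 50 after the gene's start) were at hand for 19 of the 37 genes, and for 4 of the genes called after injury. These 4 are shown because 2 of them rose and 2 fell, so that their start regions can be set side by side. Capitals mark a GC box, GGGCGG, on either strand (CCGCCC as read on the other strand).
Adam8, which rose in SM/J, chr7:139992513-139992812, minus strand: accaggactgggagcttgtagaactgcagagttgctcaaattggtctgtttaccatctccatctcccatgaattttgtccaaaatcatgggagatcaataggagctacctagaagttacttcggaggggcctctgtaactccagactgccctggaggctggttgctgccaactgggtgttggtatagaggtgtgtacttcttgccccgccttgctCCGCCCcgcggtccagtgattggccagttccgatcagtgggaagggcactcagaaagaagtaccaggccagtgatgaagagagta
Adamts12, which rose in both strains, chr15:11064523-11064822, plus strand: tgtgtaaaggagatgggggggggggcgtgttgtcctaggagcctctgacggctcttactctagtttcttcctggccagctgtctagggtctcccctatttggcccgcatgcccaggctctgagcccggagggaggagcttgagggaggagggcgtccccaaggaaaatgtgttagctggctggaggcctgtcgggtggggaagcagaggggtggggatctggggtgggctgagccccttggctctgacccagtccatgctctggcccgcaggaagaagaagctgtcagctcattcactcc
Adamtsl3, which fell in SM/J, chr7:82335444-82335743, plus strand: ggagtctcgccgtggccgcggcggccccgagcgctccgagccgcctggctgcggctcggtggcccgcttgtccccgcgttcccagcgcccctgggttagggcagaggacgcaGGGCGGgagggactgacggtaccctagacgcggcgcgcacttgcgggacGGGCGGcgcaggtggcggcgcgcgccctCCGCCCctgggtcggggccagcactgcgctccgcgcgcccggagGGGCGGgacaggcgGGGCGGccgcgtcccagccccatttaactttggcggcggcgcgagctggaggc
Adamtsl4, which fell in both strains, chr3:95687868-95688167, minus strand: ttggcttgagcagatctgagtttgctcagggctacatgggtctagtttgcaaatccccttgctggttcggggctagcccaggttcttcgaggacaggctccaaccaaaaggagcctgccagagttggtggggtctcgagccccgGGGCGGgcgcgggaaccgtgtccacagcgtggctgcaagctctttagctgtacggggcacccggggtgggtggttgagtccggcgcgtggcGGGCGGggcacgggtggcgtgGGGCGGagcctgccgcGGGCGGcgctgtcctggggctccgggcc
The GC box was found 1 time in the Adam8 window, 0 times in that of Adamts12, 5 times in that of Adamtsl3 and 4 times in that of Adamtsl4. Of the 19 member promoters 13 held it (68.4%), against 35.7% of all 32851 promoters at hand. Those were taken with no choice by gene type, so the shares may come from unlike sets. The letters searched for AP-1 (TGANTCA), for RUNX (TGTGGT) and for a TATA box (TATAAA), each on both strands, were in none of these 4 windows. Among the 19 member promoters AP-1 letters were in 2, RUNX letters in 1 and TATA letters in 2, and they were in 7.81%, 16.8% and 13.6% of all promoters in that order. A match describes letters in a window and no more.

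**Figure D1:**
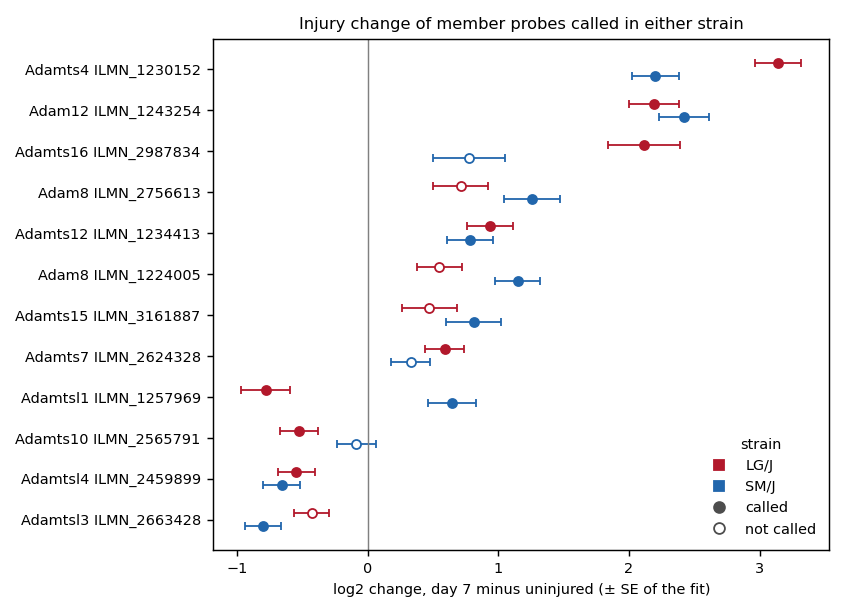
Change from injury, day 7 minus uninjured, for the 12 member probes called in at least 1 strain, on the log2 scale with the standard error of the fit as bars (n = 3 arrays per group). Adamts4 and Adam12 lie past 2 in both strains, Adamts16 does so in LG/J, and Adamtsl1 lies on opposite sides of 0 in LG/J and SM/J.

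Adamts4, aggrecanase 1, cuts aggrecan and versican. Its levels were 10.36, 10.12 and 10.13 in LG/J day 7, against 7.28, 7.06 and 6.84 in LG/J uninjured ear. In SM/J they were 8.52, 9.01 and 8.77 at day 7, against 6.24, 6.65 and 6.81 in uninjured ear. Day 7 arrays lay above uninjured ones in each strain with no overlap, and at day 7 every LG/J array lay above every SM/J array. The rise was 3.14 ± 0.18 in LG/J (8.82-fold, limma, adjusted p = 1.59e-07) and 2.20 ± 0.18 in SM/J (4.60-fold, adjusted p = 4.52e-06). The difference between these changes, 0.94 ± 0.25, did not pass (limma, adjusted p = 0.142).

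Adam12, meltrin alpha, is an ADAM of mesenchymal cells and developing muscle. It had 7.70, 7.23 and 7.65 in LG/J day 7, against 5.38, 4.95 and 5.66 in LG/J uninjured ear. SM/J arrays had 7.85, 8.33 and 7.99 at day 7, against 5.60, 5.58 and 5.72 in uninjured ear. All 6 uninjured arrays lay below the background limit and all 6 day 7 arrays above it. The gene was therefore at least 3.34-fold higher at day 7 in LG/J (limma, adjusted p = 1.08e-05) and at least 4.83-fold higher in SM/J (adjusted p = 3.35e-06). Such bounds set the day 7 mean against the background limit of the uninjured arrays. At day 7 the strains differed by -0.53 ± 0.19 (limma, adjusted p = 0.0591), which did not pass.

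Adam8 is an ADAM of neutrophils, monocytes and other leukocytes, and it had 2 probes. By probe ILMN_1224005 the levels were 7.09, 6.60 and 6.94 in LG/J day 7, against 6.32, 6.19 and 6.48 in LG/J uninjured ear. In SM/J they were 7.83, 7.21 and 7.44 at day 7, against 6.26, 6.39 and 6.38 in uninjured ear. The groups did not overlap in either strain. The LG/J changes, 0.55 ± 0.17 by this probe and 0.71 ± 0.21 by ILMN_2756613, had adjusted p-values of 0.0674 and 0.0555. The SM/J rise was 1.15 ± 0.17 by the first probe (2.22-fold, limma, adjusted p = 0.000931) and 1.26 ± 0.21 by ILMN_2756613 (2.39-fold, adjusted p = 0.00219). The difference between the strains' changes did not pass by either probe (limma, adjusted p = 0.442 and 0.676). The neutrophil sum given above was higher in SM/J day 7 than in LG/J day 7. By marker the direction was mixed, with 2 of 7 called higher in LG/J at day 7 and 3 lower. The part of neutrophils in this gene's values was not tested.

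The remaining ADAM genes with a protease motif had no call after injury. They were Adam9, a widely expressed sheddase, Adam10 and Adam17, the main sheddases of Notch receptors and of tumour necrosis factor, Adam15, an ADAM of endothelium and epithelium, Adam28, known from lymphocytes, and Adam33, known from mesenchymal cells of the airway. The brighter Adam17 probe changed by -0.09 ± 0.13 in LG/J and 0.11 ± 0.13 in SM/J (limma, adjusted p = 0.734 and 0.676). The 5 Adam15 probes had changes of 0.21 to 0.62 in LG/J, none past the threshold. The 3 ADAMs without protease activity, Adam11, Adam22 and Adam23, which bind LGI proteins in the nervous system, had no call after injury in either strain. The brighter probe of Adam23 had -0.58 ± 0.18 in LG/J and -0.56 ± 0.18 in SM/J, with adjusted p-values of 0.0562 and 0.0624 (limma), and its day 7 arrays lay below its uninjured arrays in both strains. The Schwann cell sums were lower at day 7 in both strains too, and their part in this value was not tested. With all arrays, the 7 probes of the reproductive tract genes Adam1b, Adam4, Adam5, Adam20, Adam26a and Adam30 had no call in any of the 5 comparisons. Their changes were -0.20 to 0.37 in LG/J and -0.45 to 0.29 in SM/J.

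Among proteoglycanase genes other than Adamts4, Adamts15 had 7.96, 8.48 and 8.16 in SM/J day 7, against 7.38, 7.46 and 7.31 in SM/J uninjured ear, with no overlap. The rise was 0.81 ± 0.21 (limma, adjusted p = 0.0273). It was lost on leaving out any of SM/J uninjured replicates 2, 4 and 5 or SM/J day 7 replicates 2 and 3 (0.67 to 0.85, adjusted p up to 0.113), and with arrays scaled to a common median (0.55, adjusted p = 0.176). In LG/J the values were 8.40, 8.34 and 8.53 at day 7, against 8.29, 8.18 and 7.38 in uninjured ear, and the change of 0.47 ± 0.21 did not pass (adjusted p = 0.193). Adamts8, the neighbour of Adamts15 on chromosome 9, had 0.29 ± 0.13 in LG/J and 0.29 ± 0.13 in SM/J (limma, adjusted p = 0.212 and 0.206). Adamts1 and Adamts9, which cut versican, and Adamts20, known in mice from the belted coat mutation, had no call after injury by any of their probes.

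Adamts12 and Adamts7 cut cartilage oligomeric matrix protein. Adamts12 had 10.81, 10.64 and 10.76 in LG/J day 7, against 9.95, 10.04 and 9.42 in LG/J uninjured ear. In SM/J it had 10.16, 10.43 and 10.07 at day 7, against 9.22, 9.44 and 9.64 in uninjured ear. No groups overlapped within a strain. The rise was 0.93 ± 0.18 in LG/J (1.91-fold, limma, adjusted p = 0.00498) and 0.78 ± 0.18 in SM/J (1.72-fold, adjusted p = 0.013). The SM/J call did not hold without SM/J day 7 replicate 2 (0.68, adjusted p = 0.0635), nor with arrays scaled to a common median (0.49, adjusted p = 0.217). A second, dimmer Adamts12 probe, from a cDNA clone record, moved by 0.08 ± 0.15 in LG/J and 0.02 ± 0.15 in SM/J and was not called.

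Adamts7 had 7.30, 7.32 and 7.48 in LG/J day 7, against 6.99, 6.89 and 6.46 in LG/J uninjured ear, a rise of 0.59 ± 0.15 (limma, adjusted p = 0.0248). The call did not hold without LG/J uninjured replicate 4 or any of the LG/J day 7 arrays (0.43 to 0.62, adjusted p up to 0.0983), with arrays scaled to a common median (0.43, adjusted p = 0.145) or with only the compared groups in the fit (adjusted p = 0.103). In SM/J it had 5.98, 6.15 and 6.20 at day 7, against 5.72, 5.75 and 5.87 in uninjured ear, a change of 0.33 ± 0.15 (adjusted p = 0.196). Day 7 arrays lay above uninjured arrays in both strains.

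Adamts16, reported to cut fibronectin, had 7.64, 7.33 and 7.82 in LG/J day 7, against 5.68, 5.49 and 5.28 in LG/J uninjured ear. In SM/J it had 5.23, 6.37 and 6.22 at day 7, against 4.83, 5.04 and 5.62 in uninjured ear. All uninjured arrays of both strains lay below the background limit, all LG/J day 7 arrays lay above it, and 2 of the 3 SM/J day 7 arrays did. It was at least 3.50-fold higher at day 7 in LG/J (limma, adjusted p = 0.0004). In SM/J the change of 0.77 ± 0.28 did not pass (adjusted p = 0.102), and neither did the difference between the changes, 1.34 ± 0.39 (adjusted p = 0.19).

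Adamts10, a microfibril-associated ADAMTS, fell in LG/J by the cDNA clone probe ILMN_2565791, with 6.43, 6.37 and 6.35 at day 7, against 6.97, 7.02 and 6.74 in uninjured ear (-0.53 ± 0.15, limma, adjusted p = 0.0414). The call was lost on leaving out any one of 8 of the 12 arrays (adjusted p up to 0.117), with no filter, with only the compared groups in the fit or with a spread that follows the mean level (adjusted p = 0.0524 to 0.0726). Its probe from a RefSeq mRNA record, ILMN_1229828, had -0.14 ± 0.19 in LG/J (adjusted p = 0.717). The other genes of this class had no call in either strain. They were Adamts6, the closest relative of Adamts10, Adamts17, also microfibril-associated, Adamts13, which cuts von Willebrand factor, Adamts14, a procollagen processing enzyme, and Adamts18 and Adamts19.

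Of the 5 ADAMTS-like probes 2 fell in LG/J and none rose, and in SM/J 2 fell and 1 rose, with a median change of -0.43 (LG/J) and -0.45 (SM/J). Adamtsl4, which binds fibrillin, had 9.21, 9.44 and 9.34 in LG/J day 7, against 10.06, 9.99 and 9.58 in LG/J uninjured ear. In SM/J it had 8.60, 8.59 and 8.73 at day 7, against 9.33, 9.25 and 9.32 in uninjured ear. It fell in both strains with no overlap, and the log2 change was -0.55 ± 0.14 in LG/J (limma, adjusted p = 0.0288) and -0.66 ± 0.14 in SM/J (adjusted p = 0.0101). The LG/J call was lost on leaving out any of LG/J uninjured replicates 1 and 3 or LG/J day 7 replicates 1 and 3 (-0.55 to -0.45, adjusted p up to 0.12), or with only the compared groups in the fit (adjusted p = 0.12).

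Adamtsl3 had 7.47, 7.39 and 7.40 in SM/J day 7, against 8.09, 8.19 and 8.38 in SM/J uninjured ear, by its brighter probe. The log2 change was a fall, at -0.80 ± 0.14 (limma, adjusted p = 0.00216). In LG/J the values were 7.13, 7.47 and 7.42 at day 7, against 7.62, 7.85 and 7.84 in uninjured ear, with a change of -0.43 ± 0.14 (adjusted p = 0.0685). The groups did not overlap in either strain. The dimmer Adamtsl3 probe changed by 0.25 ± 0.21 in LG/J and -0.11 ± 0.21 in SM/J and was not called. Adamtsl2, which binds fibrillin and latent TGF-beta binding protein, had -0.12 ± 0.17 in LG/J and -0.45 ± 0.17 in SM/J with no call.

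Adamtsl1, punctin, read by 1 probe from a cDNA clone record, moved in opposite directions. It had 6.67, 6.73 and 7.02 in LG/J day 7, against 7.44, 7.64 and 7.69 in LG/J uninjured ear. In SM/J it had 7.58, 7.14 and 7.11 at day 7, against 7.02, 6.41 and 6.46 in uninjured ear. Every LG/J day 7 array lay below every LG/J uninjured array, and every SM/J day 7 array lay above every SM/J uninjured array. The changes were -0.78 ± 0.19 in LG/J (limma, adjusted p = 0.0183) and 0.65 ± 0.19 in SM/J (adjusted p = 0.0452). The LG/J call did not hold without LG/J day 7 replicate 1 or 2 (-0.72 and -0.74 in that order), and the SM/J call without any one of 9 arrays (adjusted p up to 0.198). The SM/J call was also lost with arrays scaled to a common median (0.50, adjusted p = 0.103), with no filter, with only the compared groups in the fit and with a spread that follows the mean level. The difference between the changes was -1.43 ± 0.26 (adjusted p = 0.0432). It was the 1 member probe of 56 called for that difference (1.79%, against 0.345% of all probes, 0.0294% higher and 0.315% lower), and 7 member probes had an unadjusted p under 0.05. The call was lost on leaving out any 1 array but SM/J uninjured replicate 2 (-1.53 to -1.28, adjusted p up to 0.155).

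**Figure D2:**
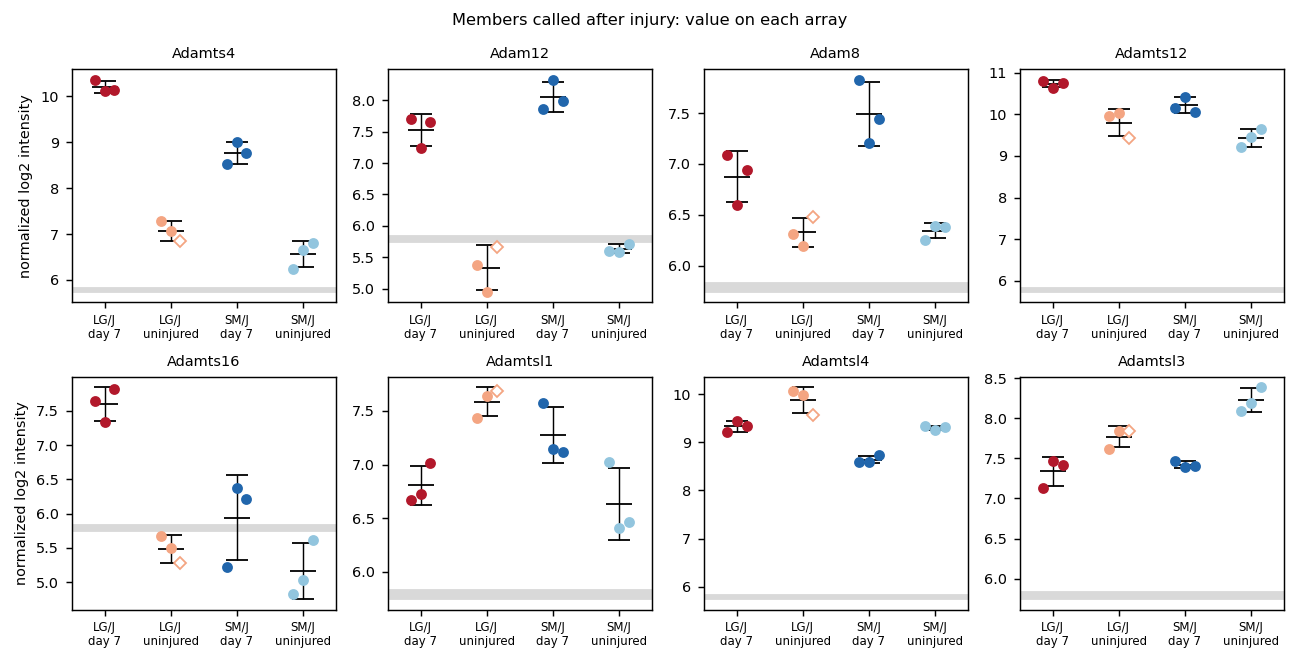
Normalized log2 intensity on each array for 8 members called after injury, with the mean and SD of each group as bars (n = 3). The open diamond is LG/J uninjured replicate 4 and the grey band spans the background limits of the arrays. The Adam8 panel shows probe ILMN_1224005, and the uninjured arrays of Adam12 and Adamts16 lie below the grey band.

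The comparison of LG/J with SM/J asks which members differed between the strains. Adamts7, Adam33, Adamtsl4 and, by its brighter probe alone, Adamts9 were higher in LG/J both in uninjured ear and at day 7. Adam9 was lower in LG/J at both. Adamts1 was lower at both by probe ILMN_2761082, whose groups overlapped in uninjured ear. The brightest Adamts1 probe was called lower at day 7 and not in uninjured ear (-0.28). In uninjured ear 9 probes of 9 genes were called, 6 higher in LG/J and 3 lower (16.1%, against 21.6% of all probes, 11.0% higher and 10.6% lower). At day 7 there were 16 probes of 13 genes, 12 higher in LG/J and 4 lower (28.6%, against 25.2% of all probes, 13.1% higher and 12% lower). The strains did not overlap in 15 of 56 members in uninjured ear, against 29.4% of all probes, and in 26 at day 7, against 48.7% of all probes. The median difference of the member probes was 0.12 in uninjured ear and 0.18 at day 7, beside 0.05 over all probes in each. Both shares of members called lay near or below the share over all probes. At day 7 the adipocyte, myofibroblast, endothelial and skeletal muscle sums were higher in LG/J than in SM/J with no overlap. The neutrophil and T cell sums were lower. In uninjured ear the adipocyte sum was higher and the T cell sum lower. By marker at day 7, 4 adipocyte, 4 myofibroblast and 2 endothelial markers were called higher in LG/J and 0 lower. No skeletal muscle marker was called, and 1 T cell marker was called higher and 1 lower. For Schwann cells, whose sums overlapped, 2 markers were called higher and 0 lower. Of the 7 neutrophil markers 2 were called higher and 3 lower. In uninjured ear 0 T cell markers were called higher and 2 lower. There 1 adipocyte marker was called higher and 0 lower. For skeletal muscle, whose uninjured sums overlapped, 3 markers were called higher and 0 lower. The part of these cell types in the strain differences was not tested. Without LG/J uninjured replicate 4, 19 member probes were called in uninjured ear, 15 higher in LG/J and 4 lower (35.6% of all probes), and these held all 9 of the calls made with it. In 12 of the 19 that array lay nearer to the SM/J mean than to the other LG/J arrays. Every probe called only without it was among these 12. Choosing probes by its removal favours such probes, so the count is no measure of the array. Called only without that array were Adamts15 (0.85), Adamts4 (0.60), Adam20 (0.55) and the brighter probes of Adam23 (0.57) and Adamts12 (0.56). Adam17 probe ILMN_1243942 (-0.52) was called only without it too. Probes of Adam15 and Adamts10 that were also called only without it follow below. The Adam20 probe lay below the background limit on all 3 SM/J uninjured arrays, and its call was near the threshold (limma, adjusted p = 0.0497). Without SM/J uninjured replicate 4 the uninjured count was 5, and the day 7 count was 10 without SM/J day 7 replicate 1 and 21 without LG/J uninjured replicate 4.

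Adamts9 had the largest strain difference of any member. By probe ILMN_1257724 its levels were 9.74, 9.61 and 9.65 in LG/J day 7, against 5.93, 6.20 and 6.32 in SM/J day 7. In uninjured ear they were 9.17, 9.22 and 9.51 in LG/J, against 5.78, 6.01 and 5.89 in SM/J, where 2 of the 3 arrays lay above the background limit. The groups lay far apart at both times, and LG/J uninjured replicate 4, with 9.51, lay with the other LG/J arrays. The difference was 3.40 ± 0.14 in uninjured ear (10.6-fold, limma, adjusted p = 2.17e-09) and 3.51 ± 0.14 at day 7 (11.4-fold, adjusted p = 1.66e-09). Injury changed this probe by 0.36 ± 0.14 in LG/J and 0.26 ± 0.14 in SM/J, with no call in either.

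Adamts7 differed by 1.0 ± 0.15 in uninjured ear (limma, adjusted p = 0.000607), where 1 of the 3 SM/J arrays lay above the background limit, and 1.26 ± 0.15 at day 7 (2.39-fold, adjusted p = 8.04e-05), and LG/J arrays lay above SM/J arrays at both times. Adam33 had 7.13, 6.98 and 7.04 in LG/J day 7, against 6.24, 6.15 and 6.44 in SM/J day 7. In uninjured ear it had 7.36, 7.45 and 7.26 in LG/J, against 6.56, 6.51 and 6.56 in SM/J. The spread within each group was small beside the gap, and the difference was 0.81 ± 0.12 in uninjured ear (limma, adjusted p = 0.000624) and 0.77 ± 0.12 at day 7 (adjusted p = 0.000773).

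Adam9 was lower in LG/J. It had 9.94, 9.42 and 9.89 in LG/J day 7, against 10.74, 10.60 and 10.55 in SM/J day 7. In uninjured ear it had 9.52, 9.41 and 9.35 in LG/J, against 9.78, 10.34 and 10.25 in SM/J. The difference was -0.88 ± 0.17 at day 7 (limma, adjusted p = 0.00345) and -0.70 ± 0.17 in uninjured ear (adjusted p = 0.0127). The uninjured call did not hold without SM/J uninjured replicate 4 or 5 (-0.59 and -0.63 in that order, adjusted p up to 0.0692). Both calls were lost with arrays scaled to a common median (-0.54 in uninjured ear and -0.62 at day 7, adjusted p = 0.12 and 0.0711), and the uninjured one with only the compared groups in the fit (adjusted p = 0.0518).

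Adamtsl4 was higher in LG/J by 0.58 ± 0.14 in uninjured ear (limma, adjusted p = 0.0121) and by 0.69 ± 0.14 at day 7 (adjusted p = 0.00435). The uninjured call did not hold without LG/J uninjured replicate 1 or 3 or SM/J uninjured replicate 4 (0.48 to 0.55, adjusted p up to 0.0607), nor with only the compared groups in the fit (adjusted p = 0.0697). Adamtsl1 was higher in LG/J uninjured ear by 0.95 ± 0.19 (adjusted p = 0.0036) and differed by -0.47 ± 0.19 at day 7 (adjusted p = 0.0782). Adamtsl3 was lower in LG/J uninjured ear by its brighter probe (-0.46 ± 0.14, adjusted p = 0.0296), a call lost without LG/J uninjured replicate 1 or 3 or SM/J uninjured replicate 4 or 5 (-0.50 to -0.38) or with only the compared groups in the fit (adjusted p = 0.0957). At day 7 that difference was -0.08 ± 0.14.

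In uninjured ear the Adamts4 difference was 0.50 ± 0.18 (limma, adjusted p = 0.0649), and 0.60 without LG/J uninjured replicate 4, when it was called. At day 7 Adamts4 was higher in LG/J by 1.43 ± 0.18 (2.70-fold, limma, adjusted p = 0.000128). Adamts16 was higher by 1.66 ± 0.28 (adjusted p = 0.00115), with LG/J arrays above SM/J arrays and no overlap. Adam8 was lower in LG/J with probe ILMN_1224005 (log2 difference -0.61 ± 0.17, adjusted p = 0.0209), a call lost without LG/J day 7 replicate 2 or SM/J day 7 replicate 1 (-0.47 and -0.45, adjusted p up to 0.0939). The remaining day 7 calls were of Adam15, Adamts1, Adamts10, Adamts12 and Adam11 and follow by probe.

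Of the 37 genes, 14 had at least 2 probes past the filter. The probes of a gene can read different stretches of its transcripts, and each further probe was compared with the brightest probe of its gene within each array, which made 19 pairs, 4 of them with both probes above the background limit on all 12 arrays. In uninjured ear 3 of 19 pairs had unequal strain differences (15.8%, against 28.3% of all 9270 such pairs on the array), and at day 7 5 of 19 did (26.3%, against 26.5%). The member shares lay near or below those of all pairs. Of these, 1 pair in uninjured ear (Adamts10) and 2 at day 7 (Adamts1 and Adamts10) held a probe above the background limit on 5 arrays or fewer. The size of disagreement in these pairs is not read. Without 1 array the counts ran from 1 (without LG/J uninjured replicate 1 or 3 or SM/J uninjured replicate 4 or 5) to 6 (without LG/J uninjured replicate 4) in uninjured ear. At day 7 they were 3 without LG/J day 7 replicate 1, 1 without LG/J day 7 replicate 2, and 2 without LG/J day 7 replicate 3 or SM/J day 7 replicate 1 or 2.

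Adamts9 was the pair with the largest disagreement. Its second probe, ILMN_1254543, which comes from a RefSeq mRNA record, had 5.90, 6.01 and 5.76 in LG/J day 7, against 6.03, 6.15 and 6.18 in SM/J day 7. In uninjured ear it had 6.0, 6.11 and 6.27 in LG/J, against 5.98, 6.37 and 6.29 in SM/J. These values lay above the background limit, by little, on 11 of the 12 arrays. The strains overlapped in uninjured ear, and at day 7 the LG/J arrays lay below the SM/J arrays. Its strain difference was -0.09 ± 0.14 in uninjured ear (limma, adjusted p = 0.719) and -0.23 ± 0.14 at day 7 (adjusted p = 0.237), where the brighter probe, for which the annotation lists no transcript record, gave 3.40 and 3.51. The within-array difference between the probes, ILMN_1254543 minus ILMN_1257724, differed between the strains by -3.49 ± 0.13 in uninjured ear (adjusted p = 1.04e-08) and -3.74 ± 0.13 at day 7 (adjusted p = 6.2e-09). The strain difference of this gene thus rests on 1 probe. ILMN_1254543 lay near background in both strains, so the size of the disagreement is mostly that of the brighter probe. The pair does not show whether transcripts of the gene disagree. No probe sequence or position was used here, so which transcript each probe reports was not tested. Sequence differences between LG/J and SM/J under these or other probes were not looked up. Their part in any strain difference given here was not tested.

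**Figure D3:**
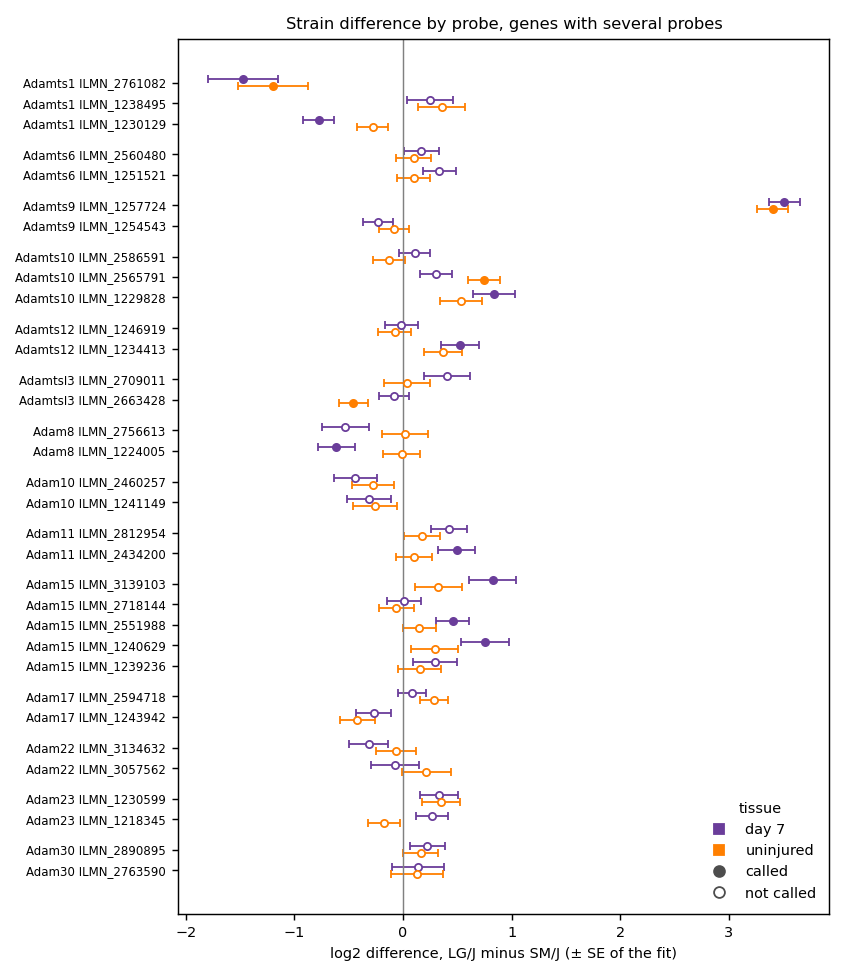
Strain difference, LG/J minus SM/J, for each probe of the 14 genes with several probes, on the log2 scale with the standard error of the fit as bars (n = 3 arrays per group). Filled points were called. The Adamts9 probes lie at 3.40 and 3.51 against -0.09 and -0.23, and of the Adamts1 probes the one near background lies above 0 at day 7.

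Adamts1 had 3 probes, all from RefSeq mRNA records. The brightest, ILMN_1230129, had 7.98, 7.65 and 8.0 in LG/J day 7, against 8.75, 8.66 and 8.56 in SM/J day 7, with a difference of -0.78 ± 0.14 (limma, adjusted p = 0.00213). In uninjured ear its difference was -0.28 ± 0.14 (adjusted p = 0.182). Probe ILMN_2761082 had 5.66, 5.58 and 5.65 in LG/J day 7, against 6.92, 7.15 and 7.23 in SM/J day 7. The LG/J values lay below the background limit, so the gene was at least 2.45-fold lower in LG/J by this probe (adjusted p = 0.00613). In uninjured ear it had 5.54, 5.95 and 7.01 in LG/J, against 6.75, 7.82 and 7.51 in SM/J, and the groups overlapped. That difference of -1.20 ± 0.32 passed (adjusted p = 0.0183), was lost without LG/J uninjured replicate 1 or 3 or SM/J uninjured replicate 4 or 5 (-1.12 to -0.88) or with only the compared groups in the fit (adjusted p = 0.0982), and was -1.62 without LG/J uninjured replicate 4. The dimmest probe, ILMN_1238495, was above the limit on 5 of 12 arrays and gave 0.25 ± 0.21 at day 7. At day 7 it lay above the limit on 1 array of each strain. Its pair with the brightest probe passed (adjusted p = 0.015), and since the probe was near background no size of disagreement is given. For ILMN_2761082 against the brightest probe the differences were -0.92 ± 0.34 in uninjured ear and -0.70 ± 0.34 at day 7 (adjusted p = 0.0656 and 0.151).

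Adam15 had 5 probes. The brightest, ILMN_3139103, had 11.18, 11.18 and 11.27 in LG/J day 7, against 10.27, 10.23 and 10.64 in SM/J day 7, a difference of 0.83 ± 0.22 (limma, adjusted p = 0.0155) that was lost without SM/J day 7 replicate 1 or 2 (0.77 and 0.75 in that order). Probes ILMN_1240629 and ILMN_2551988 were also called, at 0.76 ± 0.22 and 0.46 ± 0.15 (adjusted p = 0.0234 and 0.0418). ILMN_2551988 lay above the background limit on 2 of 3 SM/J day 7 arrays. Losses of these 2 calls without single arrays were not counted. Probe ILMN_2718144 gave 0.01 ± 0.16 and ILMN_1239236 gave 0.29 ± 0.20, neither called. Both differed from the brightest probe, ILMN_2718144 by -0.82 ± 0.25 (adjusted p = 0.0323) and ILMN_1239236 by -0.53 ± 0.14 (adjusted p = 0.0172). ILMN_2718144 lay above the background limit on 12 arrays and ILMN_1239236 on 10, by little beside the brightest probe. Since both lay near background, the size of these disagreements is uncertain. The call for ILMN_2718144 was lost without any 1 of the 6 day 7 arrays, with values of -0.92 to -0.76. That for ILMN_1239236 was lost without LG/J day 7 replicate 2 or 3 or SM/J day 7 replicate 2, with values of -0.53 to -0.41. In uninjured ear no Adam15 probe was called, and LG/J uninjured replicate 4 had the lowest value of the LG/J arrays in 4 of the 5 probes. Without that array 3 Adam15 probes were called in uninjured ear, at 0.62, 0.60 and 0.41.

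Adamts10 had 3 probes. ILMN_1229828 had 7.01, 6.92 and 7.38 in LG/J day 7, against 6.20, 6.15 and 6.44 in SM/J day 7, a difference of 0.84 ± 0.19 (limma, adjusted p = 0.00769). In uninjured ear its difference was 0.53 ± 0.19 (adjusted p = 0.0606), and 0.76 without LG/J uninjured replicate 4, when it was called. The clone probe ILMN_2565791 was higher in LG/J in uninjured ear by 0.74 ± 0.15 (adjusted p = 0.00408) and differed by 0.30 ± 0.15 at day 7 (adjusted p = 0.147). Probe ILMN_2586591 was above the background limit on 1 of 12 arrays. Its pair with ILMN_1229828 passed at both times (adjusted p = 0.0444 in uninjured ear and 0.0333 at day 7) and did not pass with arrays scaled to a common median. The uninjured pair call was lost on leaving out any one of 10 of the 12 arrays (limma, adjusted p up to 0.173). That at day 7 was lost without any 1 of the 6 day 7 arrays (adjusted p up to 0.105). A probe at background cannot follow a brighter one, so no size of disagreement is given.

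Adamts12 was higher in LG/J at day 7 by its brighter probe (0.52 ± 0.18, limma, adjusted p = 0.0448) and differed by -0.01 ± 0.15 by the dimmer one. Losses of this call, and of the Adam11 call below, without single arrays were not counted. The probes did not differ from each other past the threshold (adjusted p = 0.18 in uninjured ear and 0.113 at day 7). The 2 Adam8 probes gave like differences of -0.61 ± 0.17 and -0.53 ± 0.21 at day 7, and their disagreement was 0.08 ± 0.23 (adjusted p = 0.807). The Adam11 probes gave 0.50 ± 0.17, called with overlapping groups and with 1 of 3 SM/J arrays above the background limit, and 0.43 ± 0.17, not called, and differed by -0.07 ± 0.14 (adjusted p = 0.74). The Adamtsl3 probes differed by 0.49 ± 0.24 in uninjured ear and 0.49 ± 0.24 at day 7 (adjusted p = 0.149 and 0.157).

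Neither Adam17 probe was called in a strain comparison with all arrays. Adam17 is named because its pair was among the 3 called in uninjured ear. It was chosen after its values were seen. The bright probe ILMN_2594718 had 10.61, 10.62 and 10.57 in LG/J uninjured ear, against 10.56, 10.27 and 10.10 in SM/J uninjured ear. The dim probe ILMN_1243942, above the background limit on 1 of 3 LG/J uninjured and 3 of 3 SM/J uninjured arrays, had 5.55, 5.46 and 5.82 in LG/J, against 5.91, 6.17 and 6.01 in SM/J. All LG/J arrays lay above the SM/J arrays by the bright probe and below them by the dim one, and the probes differed by -0.70 ± 0.20 (limma, adjusted p = 0.0254). Since the dim probe lay near background, the size of that disagreement is uncertain. The call did not hold without LG/J uninjured replicate 1 or 3 or SM/J uninjured replicate 4 or 5 (-0.67 to -0.61). The remaining genes with several probes were Adam10, Adam22, Adam23, Adam30 and Adamts6, whose pairs and probes had no strain call with all arrays.

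**Figure D4:**
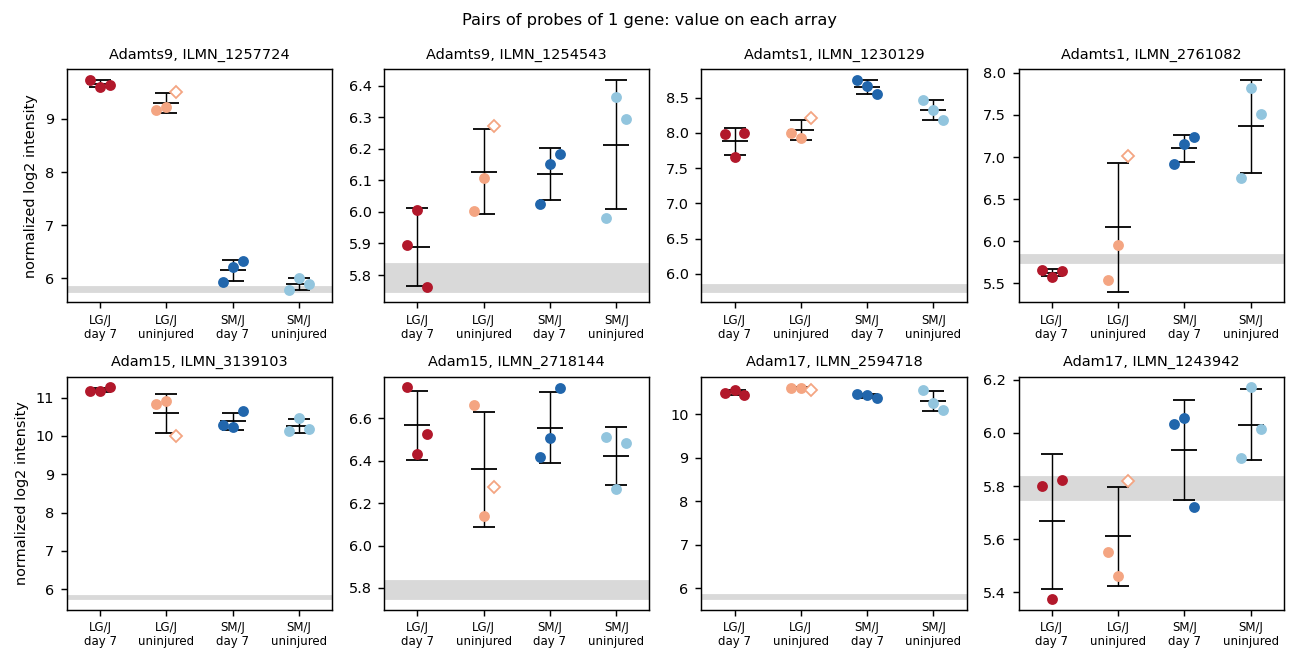
Normalized log2 intensity on each array for 2 probes each of Adamts9, Adamts1, Adam15 and Adam17, with the mean and SD of each group as bars (n = 3) and the grey band spanning the background limits. The panels have their own vertical scales, and the open diamond is LG/J uninjured replicate 4. The left Adamts9 probe lies above 9 in LG/J and near the band in SM/J, and the right one lies near the band in all groups.

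Genes that work with the family were read from 5 lists, each gene by its brightest probe. Each value thus rests on 1 probe, and other probes of these genes are not given. Of all pairs of probes of 1 gene, 28.3% had unequal strain differences in uninjured ear and 26.5% at day 7. Over all 14218 named genes read by their brightest probe, 7.43% were called higher and 5.92% lower after injury in LG/J, and 7.10% higher and 6.29% lower in SM/J. Between strains 16.1% were called higher and 10.1% lower in LG/J in uninjured ear, and 19.5% higher and 11.4% lower at day 7. The median change over these genes was -0.01 in LG/J and -0.03 in SM/J after injury, and the median strain difference was 0.11 in uninjured ear and 0.13 at day 7.

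Among protease inhibitors 6 of 7 listed genes were measured. In LG/J 1 rose and 3 fell (median -0.58), and in SM/J 1 rose and 4 fell (median -0.83). Timp1 was the one that rose, by 3.62 ± 0.15 in SM/J. Timp3, the TIMP that inhibits ADAM17 and aggrecanases, changed by -0.78 ± 0.14 in LG/J (limma, adjusted p = 0.00343) and -1.03 ± 0.14 in SM/J (adjusted p = 0.000365). Reck, a membrane-anchored inhibitor, changed by -1.31 ± 0.28 in LG/J and -1.69 ± 0.28 in SM/J, and Timp4 by -1.74 ± 0.43 in LG/J and -1.83 ± 0.43 in SM/J. The Timp4 call was lost in LG/J without any 1 of its day 7 arrays, with an adjusted p up to 0.0829. In SM/J it was lost without SM/J uninjured replicate 4 or 5 or SM/J day 7 replicate 2, with an adjusted p up to 0.0722. Between strains, Timp3 and Reck were lower in LG/J uninjured ear (-0.71 ± 0.14 and -0.97 ± 0.28), and 0 were higher. At day 7 Timp3 was lower in LG/J (-0.46 ± 0.14). The Reck call in uninjured ear and the Timp3 call at day 7 were lost without 4 and 5 single arrays.

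Of matrix substrates of ADAMTS proteases 13 of 15 were measured. After injury 2 rose and 1 fell in LG/J (median 0.18) and 2 rose and 2 fell in SM/J (median 0.13). Vcan, the proteoglycan versican, rose by 1.86 ± 0.19 in LG/J (limma, adjusted p = 4.43e-05) and 1.69 ± 0.19 in SM/J (adjusted p = 8.07e-05). Comp rose in LG/J by 0.68 ± 0.18. Fmod, fibromodulin, fell in both strains, at -0.53 ± 0.14 for LG/J and -1.39 ± 0.14 for SM/J, and the difference of 0.86 ± 0.20 did not pass (adjusted p = 0.0976). Acan, aggrecan, changed by -0.87 ± 0.23 in SM/J, and Col2a1, cartilage collagen, by 1.18 ± 0.18. Between strains 1 was higher and 1 lower in LG/J in uninjured ear (median 0.24), Col2a1 at 3.32 ± 0.18 and Fn1, fibronectin, at -1.66 ± 0.39. At day 7 there were 6 higher and 1 lower in LG/J (median 0.33), with Col2a1 at 2.68 ± 0.18, Fn1 at -1.40 ± 0.39, Fmod at 1.20 ± 0.14 and Col1a1 at 0.82 ± 0.28. The Comp, LG/J Fmod, Acan, Fn1 and Col1a1 calls were each lost without at least 1 array, with adjusted p up to 0.184. The chondrocyte sums given above were lower at day 7 than in uninjured ear in both strains. Acan, Col2a1 and Comp are themselves among those markers, so the sums are no separate measure beside these genes. The part of cartilage cells in their values was not tested.

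Of ligands and receptors shed by ADAMs 26 of 30 were measured. In LG/J 5 rose and 2 fell after injury (median -0.01), and in SM/J 7 rose and 4 fell (median 0.21). In LG/J the largest were Nrg1, neuregulin 1 (1.75 ± 0.14), Tnfrsf1b, a tumour necrosis factor receptor (1.53 ± 0.25), the transmembrane chemokine Cxcl16 (1.27 ± 0.16) and the hyaluronan receptor Cd44 (1.05 ± 0.14). In SM/J they were the epidermal growth factor receptor ligands Epgn (1.47 ± 0.29) and Hbegf (1.29 ± 0.21), with Cxcl16 (1.24 ± 0.16) and Nrg1 (1.24 ± 0.14). All 8 of these calls held without any 1 array. Between strains the list had 1 higher and 6 lower in LG/J in uninjured ear (median -0.11) and 2 higher and 8 lower at day 7 (median -0.26). Those lower in LG/J at both times included Epgn, at -1.17 ± 0.29 in uninjured ear and -1.80 ± 0.29 at day 7, the receptor Met, at -1.08 ± 0.27 and -1.06 ± 0.27, and the tumour necrosis factor receptor Tnfrsf1a, at -0.91 ± 0.23 and -0.86 ± 0.23. Btc, betacellulin, was at -0.87 ± 0.26 in uninjured ear, and Fcer2a, a B cell receptor for immunoglobulin E, at -1.20 ± 0.25 at day 7. The Met, Tnfrsf1a and Btc calls were each lost without at least 1 array, with adjusted p up to 0.15. For the difference between the injury changes no gene of this list was called, and Fcer2a had the lowest p (-1.10 ± 0.36, adjusted p = 0.268).

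Of genes that mature or carry these proteases 15 of 16 were measured. After injury 1 rose and 1 fell in each strain. Pcsk6, a proprotein convertase, fell, with changes of -0.92 ± 0.13 for LG/J and -0.97 ± 0.13 for SM/J. Tspan17, a tetraspanin of ADAM10, rose by 0.51 ± 0.15 and 0.51 ± 0.15, calls that were lost without 9 and 8 single arrays. Between strains 5 were higher and 0 lower in LG/J in uninjured ear (median 0.21), and 5 higher and 1 lower at day 7 (median 0.36). Frmd8, which with the iRhoms carries ADAM17 to the cell surface, was higher in LG/J by 0.98 ± 0.16 in uninjured ear (limma, adjusted p = 0.00142) and 0.88 ± 0.16 at day 7 (adjusted p = 0.00248). Rhbdf1, an iRhom, was at 0.66 ± 0.15 at day 7 and Rhbdf2, the other iRhom, at 0.57 ± 0.18 in uninjured ear. Tspan10 was at 0.83 ± 0.26 and 0.98 ± 0.26, Pcsk7 at 0.59 ± 0.12 in uninjured ear and the convertase Furin at 0.60 ± 0.17 at day 7. The Rhbdf2, Tspan10 and Furin calls were lost without at least 1 array, with adjusted p up to 0.165. For the difference of injury Pofut2 had the lowest p (0.56 ± 0.27, adjusted p = 0.602).

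Of microfibril genes 7 of 10 were measured. In LG/J 1 rose and 1 fell after injury (median 0.08), Mfap5 at 0.91 ± 0.19 and Ltbp4, a latent TGF-beta binding protein, at -0.91 ± 0.17. In SM/J 0 rose and 3 fell (median 0.07), Ltbp4 at -1.52 ± 0.17, the elastin gene Eln at -1.08 ± 0.20 and Ltbp3 at -0.82 ± 0.13. No member of this list was called between strains in uninjured ear, where Ltbp4 had the lowest p (adjusted p = 0.204). At day 7 Ltbp4 and Eln were higher in LG/J (0.92 ± 0.17 and 0.59 ± 0.20) and Ltbp1 was lower (-0.38 ± 0.13). The Eln and Ltbp1 calls at day 7 were each lost without 9 single arrays.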

How the data were processed

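The deposited file of each of the 12 arrays holds 1 average signal intensity per probe on a linear scale, read with BeadStudio per the submitters' processing notes, with no version given in the sources used here. The values show no sign of background subtraction or between-array normalization. The series table holds the authors' normalized intensity for part of the probes, by a method not given in the sources used here, and served as an alternative. Probe symbols came from the platform annotation.

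From the deposited intensities, the background was corrected with normexp (offset 16), log2 values were quantile normalized, and the dimmest 25% of probes were removed, which left 33960. The limma test (limma 3.58.1 with statmod 1.5.0 in R 4.3.3) was fitted per probe to the 4 groups together, with no covariate, for 5 comparisons. P-values were adjusted by Benjamini-Hochberg over all probes, and an adjusted p under 0.05 was a call. Disagreement between probes of a gene was tested by limma on within-array differences, further probe minus brightest, adjusted over all 9270 pairs. A permutation of 3 arrays against 3 cannot go below p = 0.10, so single values have the limma test alone. The files give no detection p-values, so a background limit was estimated per array from the lower side of the intensity distribution, a rule chosen after the data were seen. The fits were tested on simulated data.

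Members and partner lists were chosen with earlier results of these data known. Every called member is named where there were 12 or fewer in a comparison, otherwise the 12 with the lowest p. Genes with several probes are named where a probe was called between strains, and partner genes where called, at most 4 per list and comparison, or else the one with the lowest p. The number of arrays limits the precision. Alternatives covered background correction, normalization, filter, array weights, replicate block, the groups fitted, 1 probe per gene, the series table and each array left out. A spread that follows the mean level, and leaving out 2 uninjured arrays at once, were chosen after seeing the data.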

Additional observations from a re-analysis of the deposited data

Results flagged for a closer look

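Adamtsl1, which encodes a secreted thrombospondin-repeat protein of the matrix, was the member called for a difference between the strains in the change with injury. It was read by 1 probe, from a cDNA clone record. The change in LG/J minus that in SM/J was -1.43 ± 0.26 on the log2 scale (limma, adjusted p = 0.0432, 3 arrays a group). All 3 LG/J day 7 arrays lay below the LG/J uninjured arrays, and all 3 SM/J day 7 arrays lay above the SM/J uninjured arrays. The call did not hold without 11 of the 12 arrays taken singly, although the direction did, nor with the replicate number as a block (-1.31, adjusted p = 0.243). With 3 arrays a group, single arrays far from their group were not tested.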

How the results depend on the processing

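Over 39 named member values and their alternatives, 842 of 930 values kept the call, 88 lost it and 0 reversed. Of the 16 day 7 strain calls only the 12 with the lowest p are among these values. Those of Adam15 probes ILMN_1240629 and ILMN_2551988, of Adamts12 and of Adam11 are not, so their losses were not counted. All alternatives share the same arrays. Leaving out an array of a group not compared leaves the estimate itself unchanged, so these are not separate checks and many could not reverse. Leaving out each array in turn gave 5 to 9 member calls for injury in LG/J (8 with all arrays), 6 to 13 in SM/J (9), 0 to 2 for the difference between them (1), 5 to 19 between strains in uninjured ear (9) and 10 to 21 at day 7 (16). Probe pairs called ran from 1 to 6 in uninjured ear (3) and 1 to 5 at day 7 (5). With array weights, whose estimate did not converge fully, the member counts were 17 for injury in LG/J, 17 in SM/J, 3 for the difference and 25 between strains in uninjured ear, and 8 pairs were called at each time. With only the groups compared in the fit they were 5 for injury in LG/J and 5 between strains in uninjured ear, with 1 pair in uninjured ear. With 2 uninjured arrays left out at once, replicate 4 of LG/J and replicate 2 of SM/J, they were 15 for injury in SM/J, 2 for the difference, 20 between strains in uninjured ear and 25 at day 7, with 6 pairs in uninjured ear and 8 at day 7. The series table gave 2 calls for the difference. With the dimmest 50% of probes removed, 1 pair in uninjured ear and 3 at day 7 were called. The cause of these shifts was not tested, except that fewer probes or arrays entered some fits.

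Arrays with the same replicate number did not vary together (correlations of -0.09 to 0.26 over 10 pairs, and 1 of 12 arrays closest to its own number). With the replicate number as a block, 9 members were called for injury in LG/J, 5 in SM/J, 0 for the difference, 6 between strains in uninjured ear and 21 at day 7, with 1 pair in uninjured ear and 8 at day 7. The block lost 9 named calls: after injury Adamts7 in LG/J (0.52, adjusted p = 0.0739) and, in SM/J, Adamts12 (0.74, 0.103), Adamts15 (0.53, 0.299), Adamtsl1 (0.47, 0.357) and Adamtsl3 (-0.64, 0.0688), the Adamtsl1 difference (-1.31, 0.243), and between uninjured strains Adamtsl1 (0.84, 0.0587), Adamtsl3 (-0.32, 0.27) and Adamtsl4 (0.52, 0.0864). The Adamts9 pair was called at both times under each of its 23 alternatives. Of 60 partner calls named, 37 held without any single array. Fitting only the groups compared was not possible for the difference between injury changes, nor 1 probe per gene for pairs. Signal over background limits 18 member probes, which lay above the limit on 6 arrays or fewer.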
